A study of Mus musculus with 12 samples.

Results

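The Fam19a genes, also named Tafa, encode small secreted proteins with a conserved set of cysteines that resemble chemokines and are made mainly in the nervous system. Several of them bind neurexins, the presynaptic adhesion proteins that organise synapses, during their passage through the secretory pathway, and other receptors have been proposed for single members. The 4 members described here, Fam19a1, Fam19a2, Fam19a4 and Fam19a5, were taken by name out of the 23513 genes in the count tables. The remaining family member in the tables, Fam19a3, had 22 UMIs in all nuclei and is not described further.

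The levels come from snRNAseq of mouse embryonic cortex after prenatal alcohol exposure (PAE). Pregnant C57BL/6J dams received 6 daily intraperitoneal injections of saline or of 2.5 g/kg EtOH, from E8.5 to E13.5, and cortical nuclei were taken at embryonic day 14 by the labels and at E14.5 by the methods. The saline group holds 5 embryos (S1-1 and S1-2 of dam S1, and S2-1, S2-2 and S2-4 of dam S2) with 30349 nuclei, and the EtOH group holds 6 embryos (E1-1 and E1-2 of dam E1, and E2-1 to E2-4 of dam E2) with 20201 nuclei. Embryos of a dam shared its exposure, and dams S1 and E1 formed batch 1 and dams S2 and E2 batch 2 of nuclei isolation, so each p-value measures the spread between embryos that share only 2 dams per group. All are of the same strain, and the labels name no engineered allele.

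Among the 50550 nuclei, the authors distinguished 25 clusters, grouped into radial glial cells (RGC), intermediate progenitors (IPC), projection neurons (PN), interneurons and others, and their names are used here. A level is the UMIs of a gene summed over the nuclei of an embryo and cluster, scaled to 1000000 UMIs of that sum (CPM), in clusters where the embryo had at least 10 nuclei, which left out 9 of 275 pairs of embryo and cluster. Total UMIs per embryo ran from 14078316 to 83061737. Median UMIs per nucleus ran from 6325 to 9051 in saline embryos and from 4072 to 6911 in EtOH embryos, so the saline libraries were on the whole deeper per nucleus. Libraries of a dam differed from each other by a chi-square per gene of 4.33 to 89.7, where sampling noise gives about 1, so none was a copy, and any pair of libraries shared at most 18 nuclear barcodes. S2-4 had the lowest saline median, 6325 UMIs. By the same measure its library differed from EtOH libraries by 5.43 to 23.7 and from other saline libraries by 48.7 to 89.7. Such a value grows with the UMIs compared, which were 14078316 to 38034349 in EtOH libraries and 44017566 to 83061737 in the other saline libraries. These ranges are therefore not on an equal footing. In sums of this kind, fewer cells that make a transcript and less transcript per cell cannot be told apart, unless the counts per nucleus are shown as well.

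All 4 members are long genes, and a nuclear library counts the unspliced transcripts of a long gene readily. In GRCm38, Fam19a1 lies on the plus strand of chromosome 6 from 96113154 to 96657198, a span of 544 kb, and Fam19a4 on the minus strand of the same chromosome from 96831203 to 97060413, with 174004 bases between them. Fam19a2 spans 477 kb of the plus strand of chromosome 10 from 123263996 to 123741204, and Fam19a5 spans 215 kb of the plus strand of chromosome 15 from 87544299 to 87759364. Fam19a1 overlaps 3 annotated genes on the other strand (1700123L14Rik, Gm22971 and Gm26011) and Fam19a2 overlaps 3 on its own strand (Gm22958, Gm47801 and Gm19169). How reads of overlapping genes or strands were assigned is not given in the sources used here, so counts of these members could include reads of the overlapping genes.

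The bases just upstream of the starts set the most selectively expressed member, Fam19a1, apart from the most broadly expressed, Fam19a5. They are shown 5′ to 3′ on the plus strand, with CG dinucleotides in capitals, as the 250 bases before the RefSeq start in GRCm38.p6, at chr6:96112904-96113153 for Fam19a1 (Tafa1) and at chr15:87544049-87544298 for Fam19a5 (Tafa5).
Fam19a1: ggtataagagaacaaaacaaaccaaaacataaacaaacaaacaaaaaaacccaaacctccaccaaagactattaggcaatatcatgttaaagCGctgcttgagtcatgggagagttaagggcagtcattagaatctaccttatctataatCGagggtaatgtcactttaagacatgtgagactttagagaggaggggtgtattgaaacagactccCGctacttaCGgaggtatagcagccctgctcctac
Fam19a5: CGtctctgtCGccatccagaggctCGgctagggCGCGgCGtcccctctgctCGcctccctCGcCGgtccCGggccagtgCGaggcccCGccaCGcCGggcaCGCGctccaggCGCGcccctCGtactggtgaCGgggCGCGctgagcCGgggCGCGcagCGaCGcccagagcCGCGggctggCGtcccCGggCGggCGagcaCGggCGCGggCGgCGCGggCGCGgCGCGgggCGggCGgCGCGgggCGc
The Fam19a1 stretch has 40.8% GC and 4 CG dinucleotides, and the Fam19a5 stretch has 83.6% GC and 48. Over 32851 promoters of the same length the median was 6, a CG was present in 92.1%, and 37.8% of promoters had fewer than Fam19a1 and 99.8% fewer than Fam19a5. The second annotated start of Fam19a5 had 38 CG dinucleotides, Fam19a4 had 13 and Fam19a2 had 6. These are descriptions of sequence with no test, and nothing about regulation was measured.

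Fam19a1 was concentrated in few neurons. Its level was 9085 ± 2386 CPM (SD, n = 7 embryos) in Cluster 25 (PN 3) and 3504 ± 810 CPM (n = 11) in Cluster 8 (PN 1), followed by 836 ± 341 CPM in Cluster 7 (Int 1) and 534 ± 261 CPM in Cluster 19 (unknown neurons). In 18 of the 25 clusters, among them the callosal projection neurons, all progenitor clusters except Cluster 20 and the migrating interneurons, the mean level lay between 27.2 and 74.6 CPM. Clusters 8 and 25 together held 6.66% of nuclei and 70.5% of all Fam19a1 UMIs, and with Clusters 7 and 19 the share came to 87.5% of UMIs in 14.98% of nuclei. In the order of the 25 mean levels, 2 of 24 neighbouring pairs differed by more than the SD of their difference over embryos, Cluster 25 above Cluster 8 and Cluster 8 above Cluster 7. RGC Cluster 20 averaged 360 ± 369 CPM (n = 9), with embryos between 17.4 and 973 CPM, and there 76.3% of the saline UMIs came from 27 of 426 nuclei with 10 or more. These comparisons of clusters are given without a test, because the clusters were made from the same expression values.

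**Figure D1:**
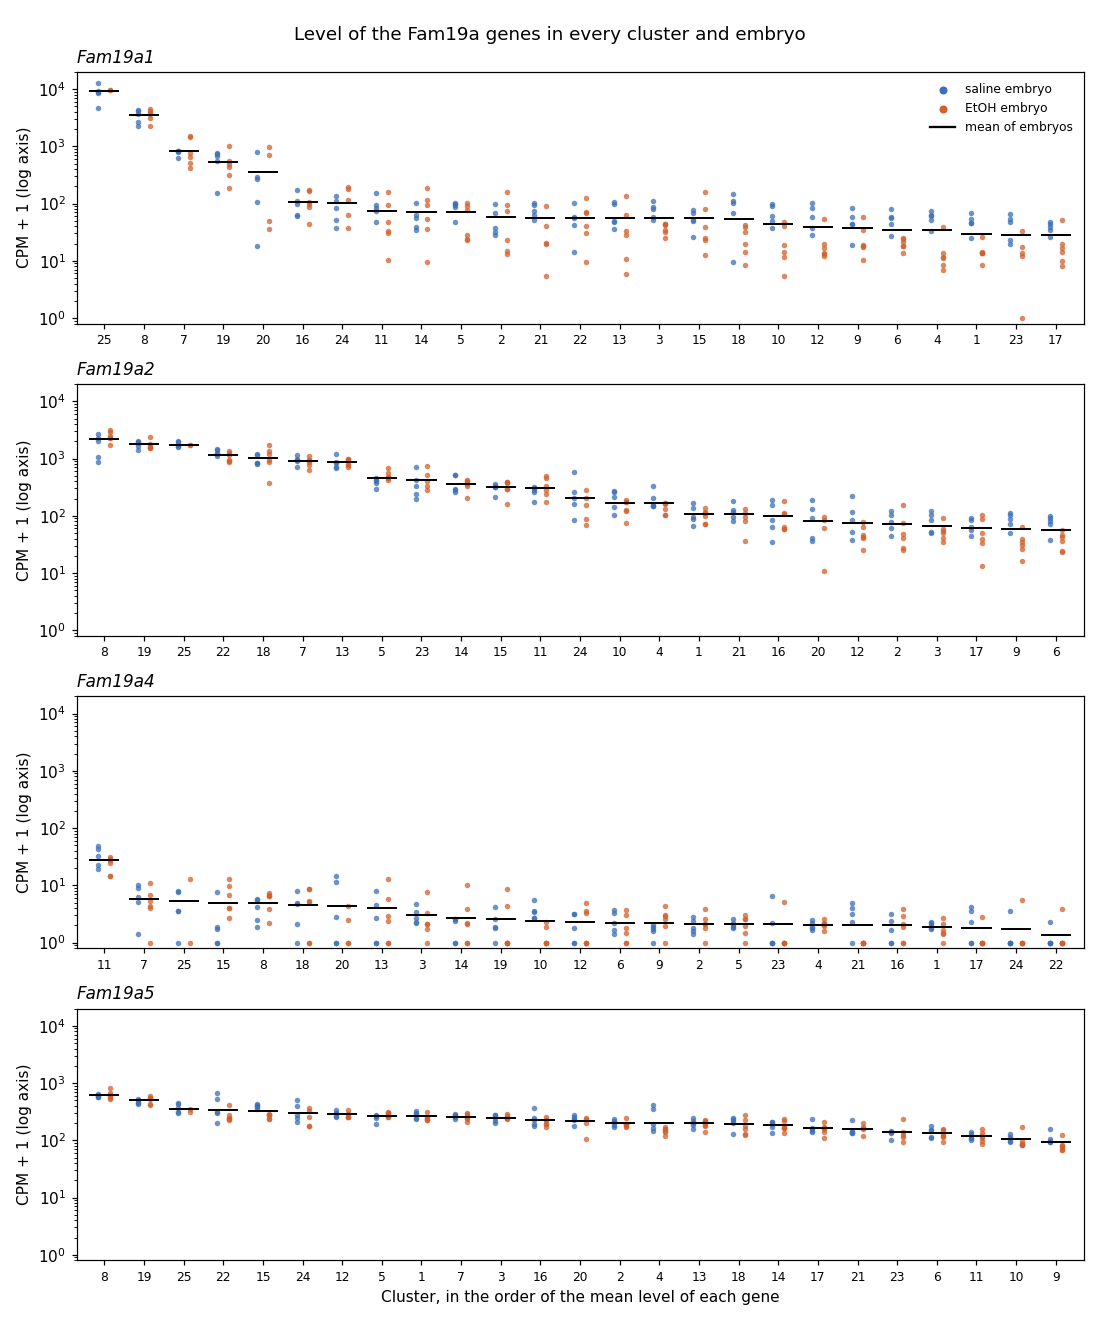
Level of each Fam19a gene in the 25 clusters, in CPM of UMIs summed per embryo and cluster, on a logarithmic axis. The axis shows CPM + 1, points are embryos, coloured by saline or EtOH, bars are means over embryos, and the clusters are in the order of the mean level of each gene. Fam19a1 stands highest in Clusters 25 and 8, Fam19a2 in Clusters 8, 19 and 25, Fam19a4 in Cluster 11 and Fam19a5 in Clusters 8 and 19.

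The marker genes bear on what these clusters are. Cluster 8 carried the projection neuron genes Neurod2 at 162 CPM and Tbr1 at 76.9 CPM, with the interneuron gene Gad2 at 55.3 CPM, and Cluster 25 had Neurod2 at 80.2 CPM and Gad2 at 26.5 CPM. Cluster 25 is small, with 124 nuclei, and deep, with a median of 19112 UMIs per nucleus. Only 2 of the 6 EtOH embryos had enough nuclei in Cluster 25 to give a level.

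Counts per nucleus showed that Fam19a1 divided the nuclei of Cluster 8. In saline embryos 803 of 1829 Cluster 8 nuclei (43.9%) had 10 or more Fam19a1 UMIs and held 98.2% of the UMIs of the gene in that cluster, and in EtOH embryos 622 of 1412 nuclei (44.1%) held 98.0%. In Cluster 25 such nuclei were 97.5% of all in saline and 97.7% in EtOH, while in Cluster 7 they were 13.64% and 13.53%. Per embryo, the Cluster 8 share was 51.0% in S1-1, 45.9% in S1-2, 27.9% in S2-1, 34.4% in S2-2 and 49.0% in S2-4. In EtOH embryos it was 30.5% at the lowest, 44.5% at the median and 53.7% at the highest, so that the groups overlapped over most of their range.

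**Figure D2:**
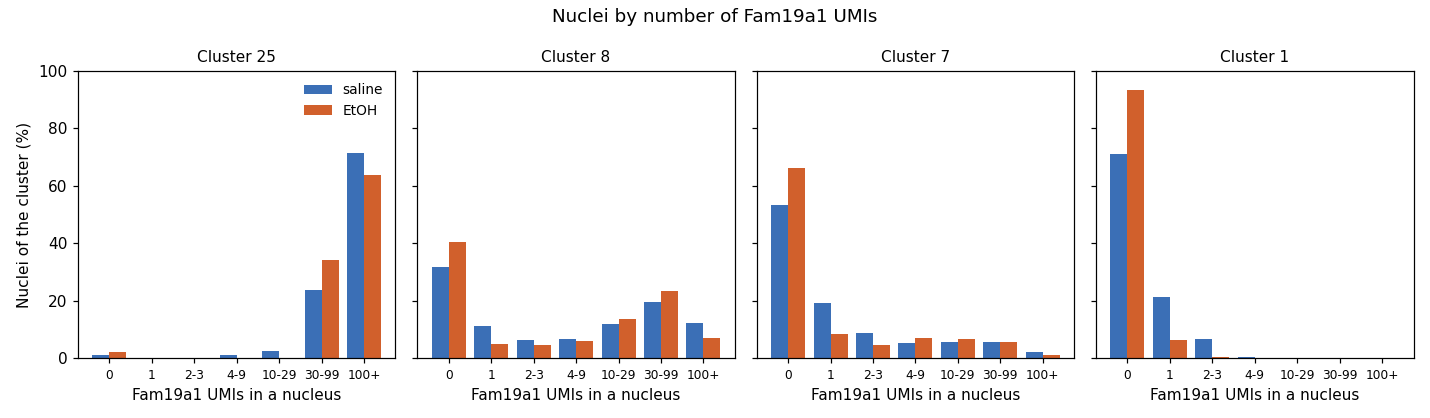
Distribution of Fam19a1 UMIs per nucleus in Clusters 25, 8, 7 and 1, as bars for the percent of nuclei in each bin of UMIs, for saline and EtOH. In Cluster 25 nearly all nuclei lie at 10 or more UMIs, in Cluster 8 the nuclei divide between few and many, and in Cluster 1 nearly all have between 0 and 3, with more saline than EtOH nuclei at 1.

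The Cluster 8 nuclei with 10 or more Fam19a1 UMIs differed from the other nuclei of that cluster in other genes too. Fam19a2 was at 3203 ± 928 CPM in them and at 1008 ± 286 CPM in the others, higher in 11 of 11 embryos. Of these nuclei 67.9% ± 11.1 (SD, n = 11) also had 10 or more Fam19a2 UMIs, compared with 20.9% ± 4.5 of the others. Syn3, a synaptic vesicle gene, was at 952 CPM against 712 CPM, again higher in 11 of 11 embryos. Lower in 11 of 11 embryos were Neurod2 at 118 against 206 CPM, Neurod6 at 60.1 against 105 CPM, Tbr1, a deep-layer neuron factor, at 61.6 against 91.1 CPM, and Dcx, a gene of migrating neurons, at 513 against 665 CPM. Of other projection neuron markers, Fezf2 was higher, at 13.7 against 8.70 CPM (10 of 11 embryos), and Bcl11b was at 711 against 758 CPM (higher in 3 of 11). Fam19a5 was at 604 and 622 CPM. The nuclei were selected on Fam19a1 counts, and the selected ones were deeper (median 9221 against 6581 UMIs), so the values are a description. The part of doublets in the deeper nuclei was not tested; CPM corrects for total depth but the selection by count does not.

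In Cluster 7 the 482 nuclei with 10 or more Fam19a1 UMIs had less of the interneuron genes. Gad1, an enzyme of GABA synthesis, was at 99.7 CPM in them against 198 CPM in the other nuclei, Lhx6, a factor of interneurons from the medial ganglionic eminence, at 2.82 against 18.7 CPM, and Nrxn3 at 7212 against 12836 CPM. Fam19a2 UMIs of 10 or more were found in 39.8% of them and in 24.2% of the others. In Cluster 19 the same split gave 55.2% against 52.0% of nuclei (higher in 6 of 11 embryos) and Fam19a2 at 1930 against 1721 CPM (higher in 5 of 11). The selected nuclei of Cluster 7 were also deeper, at a median of 11302 against 9144 UMIs.

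Fam19a2 was spread over more neurons. It was highest in Cluster 8 at 2167 ± 704 CPM (n = 11), Cluster 19 at 1774 ± 277 CPM and Cluster 25 at 1757 ± 148 CPM, followed by the callosal Cluster 22 at 1172 CPM and the interneuron Clusters 18, 7 and 13 at 1030, 905 and 866 CPM. Mean levels were above 100 CPM in 17 clusters and lowest in Cluster 6 (non-mitotic IPC) at 54.5 CPM. Cluster 25 above Cluster 22 and Cluster 13 above Cluster 5 were the 2 of 24 neighbouring pairs that differed by more than their spread, so the order among Clusters 8, 19 and 25 was not resolved. In the saline embryos taken alone Cluster 19 (1796 CPM) stood just above Cluster 8 (1789 CPM). In Cluster 8 the saline levels were 2662 CPM in S1-1, 2026 CPM in S1-2, 1085 CPM in S2-1, 872 CPM in S2-2 and 2300 CPM in S2-4, and S2-1 and S2-2 lay below all EtOH embryos.

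Fam19a5 was the most evenly expressed member. Its mean level lay between 93.6 CPM in Cluster 9 (early PN) and 617 ± 82 CPM (n = 11) in Cluster 8, with 24 of 25 clusters above 100 CPM, progenitors included. Cluster 19 followed at 495 ± 57 CPM, and Clusters 25, 22 and 15 at 358, 331 and 321 CPM. Cluster 8 above Cluster 19 and Cluster 19 above Cluster 25 were the 2 of 24 neighbouring pairs beyond their spread. Embryos S2-1 and S2-2 stood above the other saline embryos in Cluster 4 (411 and 352 CPM, with the other 3 between 143 and 195) and in Cluster 22 (535 and 665 CPM, with the other 3 between 197 and 314).

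Fam19a4, known from sensory neurons of the dorsal root ganglion, was near 0 in these libraries except in Cluster 11, named striatal interneurons. It reached 27.0 ± 10.8 CPM (n = 11) there and 4.87 CPM in the next cluster, Cluster 7, and that step was the only 1 of 24 beyond the spread. A Fam19a4 UMI was found in 14.9% ± 5.0 of Cluster 11 nuclei, at a median of 8528 UMIs per nucleus, against 0.611% of the callosal neurons of Cluster 1, at a median of 6608. Cluster 11 expressed Ebf1 at 12463 CPM and Rarb at 1910 CPM, both genes of striatal neurons. With 1491 UMIs of Fam19a4 in all, no member was counted less.

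Per 100 kb of gene, which takes out the length but not other differences between genes, the highest cluster level was 1670 CPM for Fam19a1, 454 CPM for Fam19a2, 287 CPM for Fam19a5 and 11.8 CPM for Fam19a4. The median cluster level per 100 kb had another order, 100.6 CPM for Fam19a5, 43.5 CPM for Fam19a2, 10.1 CPM for Fam19a1 and 0.551 CPM for Fam19a4. Across the 25 clusters the log-scaled levels of Fam19a1 correlated with those of Fam19a2 at Pearson's r = 0.61 and with those of Fam19a5 at 0.62, Fam19a2 and Fam19a5 at 0.56, and Fam19a4 and Fam19a5 at -0.02. These points share libraries and depth and are given without a test.

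Other genes followed the members over the 25 clusters, by correlation of log-scaled levels among 11620 genes. The 5 most like Fam19a1 were Rasal1 (r = 0.89), Mal2, Dennd4a, Dgat2 and Dtna, each highest in Cluster 25. For Fam19a2 they were Syn3 (r = 0.91), Gpr139, an orphan receptor, Chd5, a neuronal chromatin remodeller, Ice1 and 4930486F22Rik. Dgkk (r = 0.85), Scn10a, a sodium channel, Gm14133 and Has3 were among the nearest to Fam19a4, all highest in Cluster 11. Slc16a7 (r = 0.78), a monocarboxylate transporter, Arsb, Btbd3, Slc22a5 and C1ql3, a secreted synaptic protein, were nearest to Fam19a5, and all were highest in Cluster 25.

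To ask whether EtOH altered the family, summed counts of EtOH and saline embryos were compared cluster by cluster with the quasi-likelihood test of edgeR. A call needed a level at least 25% higher or 20% lower and a Benjamini-Hochberg adjusted p under 0.05 over all genes of the cluster. Of 77 tests of members, 3 were called and all 3 were lower after EtOH: Fam19a1 in Clusters 1 and 3 and Fam19a5 in Cluster 15. That is 3.90%, beside 0.792% of 217253 tests of all genes over the 25 clusters. Values in the 2 groups did not overlap in 3 of 77 tests, which are Fam19a1 in Clusters 3 and 6 and Fam19a5 in Cluster 15, beside 2.14% of all tests. The log2 difference was below 0 in 54 of 77 tests, which share the same embryos, with a median of -0.16 beside 0.006 over all genes. An unadjusted p under 0.05 was found in 17 edgeR tests, and the share over all genes is not given here. Genes of at least 100 kb, which include every member, had medians of -0.09 in Cluster 1, -0.11 in Cluster 3 and -0.05 in Cluster 15. All genes together had medians of 0.003, 0.005 and 0.01 there. Over the 25 clusters, 49.9% (Cluster 25) to 71.4% (Cluster 6) of these long genes were below 0, beside 47.4% to 51.2% of all genes. The part of gene length in the members' values was not tested.

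**Figure D3:**
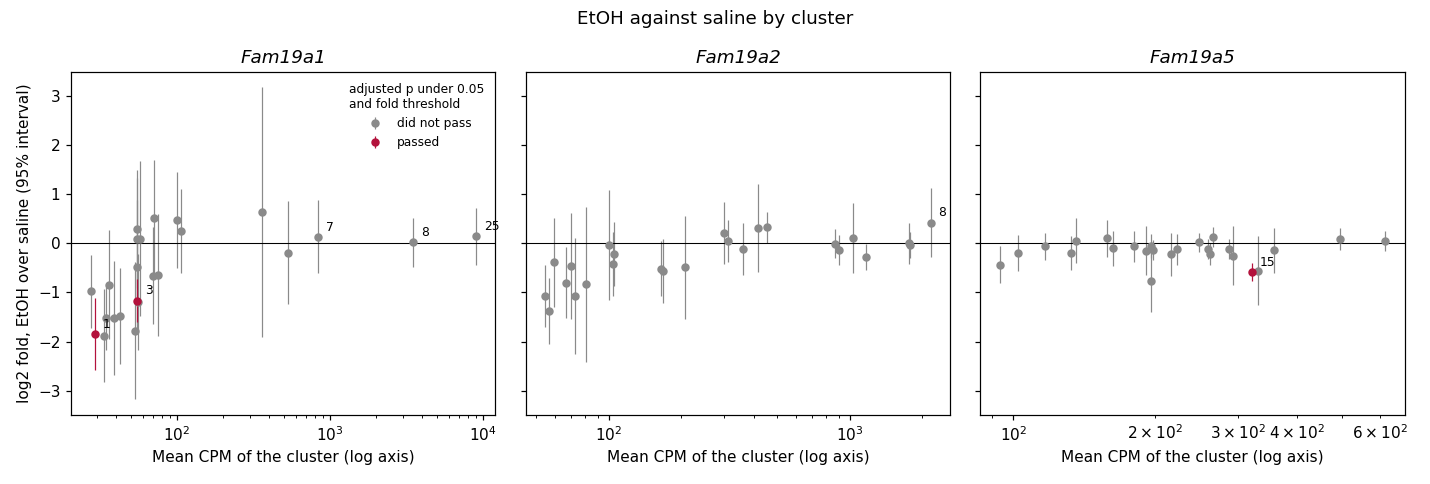
Log2 fold of EtOH over saline for Fam19a1, Fam19a2 and Fam19a5 in each cluster tested, against its mean level in CPM on a logarithmic axis. Bars are 95% intervals, red points are the 3 called values, and numbers name clusters. Fam19a1 values lie between -0.19 and 0.63 in the 7 clusters above 100 CPM and below 0 in 13 of the 17 tested at or under it. Mean levels are over all embryos, EtOH included.

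In the neurons that carry most of its transcript, Fam19a1 was not called. Cluster 8 levels in saline embryos were 4349 CPM in S1-1, 3658 CPM in S1-2, 2309 CPM in S2-1, 2643 CPM in S2-2 and 4106 CPM in S2-4, and EtOH embryos had 2225 CPM at the lowest, 3726 CPM at the median and 4551 CPM at the highest. The log2 difference in Cluster 8 was 0.02 (SE 0.22, 95% interval -0.48 to 0.52, adjusted p = 0.976). In Cluster 25 it was 0.14 (interval -0.44 to 0.72), with 2 EtOH embryos, and in Cluster 7 it was 0.13 (interval -0.61 to 0.87). All of these intervals include 0, so a difference was not detectable at this spread between embryos.

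In the clusters of low Fam19a1 the log2 difference was below 0 in 13 of 17 clusters tested, with 2 called. The median was -0.98 and the range -1.88 to 0.51. Low means at or under 100 CPM on average over all embryos, so the EtOH levels compared here also entered the cut. Clusters 16 and 24 lay above it, at 105.9 and 100.6 CPM. Pooled nuclei of those clusters had 87.9 and 81.2 CPM in saline and 106 and 113 CPM in EtOH. Over the 18 clusters at or under 100 CPM, summed per embryo, the saline levels were 83.5 CPM in S1-1, 76.3 CPM in S1-2, 56.1 CPM in S2-1, 43.6 CPM in S2-2 and 49.9 CPM in S2-4, and the EtOH levels were 19.1 CPM at the lowest, 35.5 CPM at the median and 49.4 CPM at the highest. The groups overlapped, since S2-2 lay below the highest EtOH embryos. Saline embryos averaged 61.9 ± 17.2 CPM (SD) and EtOH embryos 35.7 ± 11.2 CPM. Within batch 1 the means were 79.9 against 37.4 CPM and within batch 2 they were 49.9 against 34.9 CPM. Over Clusters 8 and 25 together the means were 3934 ± 924 and 4082 ± 711 CPM. Both sums were defined after the differences by cluster had been seen, so they are a description with no test.

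Most nuclei with any Fam19a1 UMI in these 18 clusters had 1 (71.3% of them in saline, 78.0% in EtOH), while a small number had many. The 136 saline and 74 EtOH nuclei with 10 or more UMIs held 31.0% and 53.5% of the UMIs of the gene there. Without them the saline embryos had 65.9 CPM (S1-1), 47.3 CPM (S1-2), 45.4 CPM (S2-1), 32.7 CPM (S2-2) and 21.7 CPM (S2-4). The EtOH embryos had 11.04 CPM at the lowest, 16.6 CPM at the median and 20.8 CPM at the highest, so that the groups did not overlap. This split, made after the values had been seen, is given without a test. Median UMIs per nucleus over all clusters were 9051 in S1-1, 8678 in S1-2, 8369 in S2-1, 8365 in S2-2 and 6325 in S2-4. The saline levels fell in the same order. The lowest EtOH level was that of E1-1, whose median was 4072 UMIs. E2-1, E2-2 and E2-3 were deeper than S2-4, at medians of 6911, 6763.5 and 6454.5 UMIs. Their levels, 19.6, 20.8 and 15.3 CPM, lay below that of S2-4. The part of depth per nucleus in the difference was not tested. In the 18 clusters the share of nuclei with a Fam19a1 UMI was between 26.7% and 34.4% in saline and between 6.32% and 13.9% in EtOH, and with each nucleus thinned to 2000 UMIs it was between 6.23% and 11.9% against 1.95% and 7.002%. The share of nuclei with 1 to 3 Fam19a1 UMIs ran from 11.4% (S2-4) to 44.4% (S1-1) in saline embryos and from 3.74% to 10.4% in EtOH embryos, so that the groups did not overlap. Nuclei with 10 or more UMIs averaged 0.559% of nuclei in saline and 0.448% in EtOH. For scale, 62.7% of Cluster 8 nuclei (median 7703 UMIs) and 20.6% of the mitotic progenitors of Cluster 17 (median 8640 UMIs) had a Fam19a1 UMI. A low share this alike from cluster to cluster is also what free RNA in the droplets gives, so the nuclei with few UMIs are not read as expressing Fam19a1, and the part of free RNA in the difference was not tested.

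Of the low clusters, Fam19a1 was called in Cluster 1, the larger group of callosal projection neurons. Its level was 68.7 CPM in S1-1, 53.0 CPM in S1-2, 43.8 CPM in S2-1, 44.7 CPM in S2-2 and 23.7 CPM in S2-4, against 7.42 CPM at the lowest, 12.9 CPM at the median and 25.3 CPM at the highest in EtOH embryos. All but S2-4 lay above every EtOH embryo, and S2-4 was below E2-3 alone. Nuclei with 10 or more UMIs were 5 of 2432 in saline and 1 of 1934 in EtOH. Of nuclei with any Fam19a1 UMI, 74.3% in saline and 92.4% in EtOH had 1. As above, nuclei with few UMIs are not read as expressing Fam19a1, and the part of free RNA in this call was not tested. The log2 difference was -1.85 (SE 0.33, 95% interval -2.59 to -1.12, adjusted p = 0.0267), beside 1.69% of 10769 genes called lower in that cluster. The call was lost without any of S1-1, S1-2, S2-1, S2-2, E1-2, E2-1, E2-2 or E2-4 (adjusted p between 0.0534 and 0.0649), with counts summed per dam (-1.99, adjusted p = 0.186), and in batch 2 alone (-1.29, adjusted p = 0.233), and batch 1 alone gave -2.70. With an embryo left out the log2 difference was between -2.05 and -1.63. Summed interneuron markers in Cluster 1 moved the same way, from a range of 39.8 to 120 CPM in saline to 26.7 to 53.8 CPM in EtOH, with 6 of 6 genes lower. Cajal-Retzius markers there ranged between 168 and 430 CPM in saline and between 91.5 and 211 CPM in EtOH (3 of 4 lower), and striatal markers between 430 and 550 CPM and between 359 and 454 CPM (3 of 3). IPC markers (4 of 4), RGC markers (6 of 6) and thalamic markers (4 of 4) were lower as well, the first between 32.8 and 54.5 CPM in saline and between 21.1 and 36.0 CPM in EtOH, while microglial markers went the other way, from a mean of 12.98 to 21.4 CPM (0 of 4 lower). No gene of these lists was at 0. Single genes held most of some sums in Cluster 1: Reln (229 CPM, Cajal-Retzius), Foxp1 (359 CPM, striatal), Lef1 (71.7 CPM, thalamic) and Cx3cr1 (12.6 CPM, microglial). Foxp1 was at 575 CPM in RGC Cluster 2, and Cx3cr1 lay between 9.73 and 22.7 CPM in all 25 clusters. The sums are not read as traces of other cell types, and the part of these lists in the result was not tested.

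In Cluster 3, named interneuron precursors among the radial glia, the levels were 87.4 CPM in S1-1, 79.4 CPM in S1-2, 58.0 CPM in S2-1, 51.1 CPM in S2-2 and 112 CPM in S2-4, and EtOH embryos had 24.01 CPM at the lowest, 37.1 CPM at the median and 43.1 CPM at the highest. Every saline embryo lay above every EtOH embryo, but in S2-4, the highest, 5 of 558 nuclei held 71.9% of the UMIs, the top nucleus 133 of 384. Without nuclei of 10 or more UMIs, S2-4 had 32.4 CPM and S2-2 35.8 CPM, within the EtOH range of 24.01 to 42.1 CPM, and the other saline embryos had 55.0 to 85.3 CPM. With all nuclei the log2 difference was -1.17 (SE 0.20, 95% interval -1.60 to -0.73, adjusted p = 0.0319), beside 0.776% of 11084 genes called lower. The call was lost without any of S1-1, S1-2, E1-2, E2-1, E2-2, E2-3 or E2-4 (adjusted p between 0.0528 and 0.0960) and in batch 2 alone (-1.08, adjusted p = 0.356), and batch 1 alone gave -1.24. With an embryo left out the log2 difference was between -1.27 and -1.04. Summed radial glial markers in Cluster 3 were 889 to 1093 CPM in saline and 1044 to 1416 CPM in EtOH, with 2 of 6 genes lower. Cajal-Retzius markers ran from 34.7 to 130 CPM in saline and from 24.01 to 61.9 CPM in EtOH (4 of 4 lower), striatal markers from 443 to 646 and from 351 to 562 CPM (3 of 3), PN markers from 440 to 532 and from 346 to 535 CPM (5 of 6) and interneuron markers from 220 to 365 and from 189 to 308 CPM (4 of 6). Microglial markers went the other way, from 14.02 to 37.0 CPM in saline and from 34.3 to 49.8 CPM in EtOH (1 of 4 lower), as did pericyte markers, from 18.1 to 35.0 and from 18.6 to 47.5 CPM (0 of 3). No gene of these 7 lists was at 0. Reln (54.9 CPM) and Foxp1 (365 CPM) held most of the Cajal-Retzius and striatal sums in Cluster 3. The part of these lists in the result was not tested. Near the threshold were Cluster 6, at -1.53 with adjusted p = 0.0596 and no overlap of groups, and Cluster 4, at -1.88 with adjusted p = 0.0650, both in edgeR. DESeq2 and limma with dam as a random block each called Fam19a1 in both of these clusters as well as in Clusters 1 and 3.

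**Figure D4:**
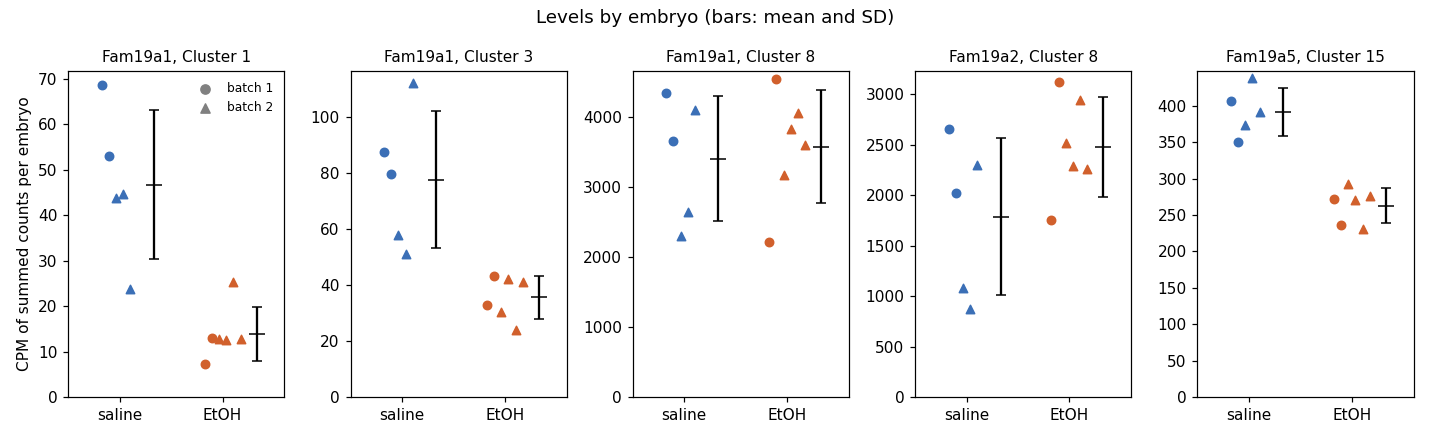
Level in CPM of Fam19a1 in Clusters 1, 3 and 8, Fam19a2 in Cluster 8 and Fam19a5 in Cluster 15, with a point per embryo (shape by batch) and the mean and SD of each group. Saline and EtOH embryos separate in Cluster 3 and Cluster 15, touch at S2-4 and E2-3 in Cluster 1, and overlap in Cluster 8 for both genes shown there.

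The difference of the EtOH effect between clusters was tested for 6 pairs of clusters that were chosen after the effects had been seen. The adjustment was over the genes of a pair and does not cover that choice, so a pass here is a description. For Fam19a1 the effect in Cluster 3 minus that in Cluster 8 was -1.13 on the log2 scale (SE 0.15, adjusted p = 0.00192), where 0.137% of 12406 genes passed. The Cluster 1 minus Cluster 8 difference was -1.82 (SE 0.35) and did not pass (adjusted p = 0.226). Between PN, RGC and interneurons taken as whole types, none of 12 differences tested for members passed the edgeR test, beside 0.0106% of 47201 tests of all genes, and the lowest p was that of Fam19a5 for PN minus RGC (-0.22, unadjusted p = 0.0065, adjusted p = 0.257), with 2 of the 12 at an unadjusted p under 0.05.

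Fam19a2 was called in no cluster by edgeR (1 by limma, 2 by DESeq2), although 5 of its 25 tests had an unadjusted p under 0.05. Its median log2 difference was -0.21, and 19 of 25 lay below 0. In the 8 clusters with a level at or under 100 CPM all were below 0, with a median of -0.82. In those above 100 CPM the median was -0.05. Here too the cut used the mean over all embryos, EtOH included. The nearest to a call was Cluster 9 (early PN), where saline embryos had 103 CPM in S1-1, 85.7 CPM in S1-2, 111 CPM in S2-1, 72.0 CPM in S2-2 and 48.6 CPM in S2-4 and EtOH embryos 15.02 CPM at the lowest, 32.2 CPM at the median and 62.6 CPM at the highest. Only S2-4 fell within the EtOH range, and the log2 difference was -1.38 (SE 0.31, adjusted p = 0.0578). In Cluster 8, the cluster of its highest level, the difference was 0.42 (interval -0.28 to 1.12, adjusted p = 0.483).

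Fam19a5 in Cluster 15 (Int 3) gave the member call with the lowest adjusted p. Saline levels were 406 CPM in S1-1, 350 CPM in S1-2, 374 CPM in S2-1, 437 CPM in S2-2 and 392 CPM in S2-4, and EtOH levels were 230 CPM at the lowest, 271 CPM at the median and 293 CPM at the highest. No EtOH embryo reached the lowest saline embryo. The 105 saline and 16 EtOH nuclei with 10 or more UMIs held 45.9% and 20.4% of the Fam19a5 UMIs there. Without them the groups overlapped, at 241 to 298 CPM in saline (mean 259) and 188 to 272 CPM in EtOH (mean 234). This split took out nuclei by the count being compared, 105 of 834 in saline and 16 of 452 in EtOH. Such a cut can narrow the gap by itself, and the split is given without a test. With all nuclei the log2 difference was -0.59 (SE 0.09, 95% interval -0.78 to -0.41, adjusted p = 0.00425), where 0.0766% of 9134 genes were called lower. The call held when each embryo was left out in turn (adjusted p at most 0.0269) and with counts summed per dam (adjusted p = 0.0228). Within the batches the difference was -0.63 (adjusted p = 0.197) and -0.59 (adjusted p = 0.276). It was lost when nuclei were thinned to 2000 UMIs, where the difference was -0.42 (adjusted p = 0.276).

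In single nuclei of Cluster 15, the share with 10 or more Fam19a5 UMIs was 15.96% in S1-1, 11.9% in S1-2, 10.8% in S2-1, 17.6% in S2-2 and 7.09% in S2-4. In EtOH embryos it was 0% at the lowest, 2.64% at the median and 8.05% at the highest, so that S2-4 overlapped them. A share of this kind also follows depth per nucleus, and with the nuclei of each group pooled it was lower in EtOH in 24 of 25 clusters, Cluster 8 among them (20.6% against 15.01%), so the lower share is not particular to Cluster 15. The share with any Fam19a5 UMI averaged 76.8% ± 4.1 over the 5 saline embryos and 65.1% ± 10.2 (SD) over the 6 EtOH embryos, and 40.9% against 36.8% after thinning. For scale, 25.4% of the early PN of Cluster 9 (median 5566 UMIs, against 9146 in Cluster 15) had one. Cluster 15 carried Gad2 at 1100 CPM and Lhx6 at 190 CPM, and the summed interneuron markers ranged from 1589 to 1844 CPM in saline and from 1179 to 1936 CPM in EtOH (3 of 6 genes lower). RGC markers there had means of 97.9 CPM in saline and 66.6 CPM in EtOH (6 of 6 lower), OPC markers 4.48 and 0.389 CPM (3 of 3 lower) and microglial markers 22.6 and 37.8 CPM (2 of 4 lower). The part of these lists was not tested.

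The other interneuron clusters gave Fam19a5 effects nearer to 0. The effect in Cluster 15 minus that in Cluster 5 (migrating interneurons) was -0.71 (SE 0.12, adjusted p = 0.0325), where 0.0189% of 10596 genes passed. Cluster 5 had the highest Fam19a5 effect of the 25 clusters, 0.12, and this pair was chosen after the effects had been seen. Against Clusters 7, 13 and 18 the differences were -0.49, -0.53 and -0.43, and none passed (adjusted p = 1.00 in each). In Cluster 8, where Fam19a5 was highest, the EtOH difference was 0.04 (interval -0.16 to 0.25, adjusted p = 0.839), and in Cluster 4 it was -0.78 (adjusted p = 0.149), with S2-1 and S2-2 high as given above.

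For Fam19a4 3 clusters had counts enough to test, and edgeR, DESeq2 and limma called none, nor did any have an unadjusted p under 0.05. In Cluster 11 the saline levels were 21.9 CPM in S1-1, 18.3 CPM in S1-2, 47.5 CPM in S2-1, 42.7 CPM in S2-2 and 31.3 CPM in S2-4, and EtOH levels were 13.3 CPM at the lowest, 25.5 CPM at the median and 29.8 CPM at the highest. The 2 saline embryos of batch 1 lay within the EtOH range. The log2 difference was -0.44 (interval -1.03 to 0.15, adjusted p = 0.417).

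Summed over major cell types, 1 of 15 member tests was called, beside 4.32% of 54969 tests of all genes. That was Fam19a1 in IPC, with 73.0 CPM in S1-1, 48.9 CPM in S1-2, 51.7 CPM in S2-1, 36.7 CPM in S2-2 and 28.8 CPM in S2-4, against 10.9 to 32.4 CPM in EtOH embryos, which overlap S2-4. The log2 difference was -1.40 (SE 0.30, adjusted p = 0.0479). The call passed without S2-4 (adjusted p = 0.00240) and was lost without any other embryo (adjusted p between 0.0691 and 0.131), with batch as a covariate (-1.30, adjusted p = 0.0541) and with counts summed per dam (adjusted p = 0.141). With an embryo left out the log2 difference was between -1.58 and -1.17. In the IPC clusters, Cajal-Retzius markers had means of 204 CPM in saline and 139 CPM in EtOH in Cluster 6 and of 101.2 and 48.8 CPM in Cluster 17 (4 of 4 lower in each), and in Cluster 6 interneuron markers had 104 and 68.0 CPM (4 of 6 lower) and striatal markers 751 and 679 CPM (3 of 3 lower). Radial glial markers were higher after EtOH, from 192 to 256 CPM in saline and from 261 to 295 CPM in EtOH in Cluster 6, with no overlap, and with means of 401 and 489 CPM in Cluster 17 (2 of 6 lower in each). Microglial markers had means of 12.9 and 21.5 CPM in Cluster 6 and of 18.6 and 38.7 CPM in Cluster 17 (1 of 4 lower in each), with C1qa at 0 in Cluster 17. The IPC markers themselves had means of 739 and 717 CPM in Cluster 6 (1 of 4 lower) and of 444 and 358 CPM in Cluster 17 (4 of 4 lower). The part of these lists in the IPC result was not tested. In all nuclei together none of the 4 members was called by edgeR, DESeq2 or limma, and none had an unadjusted p under 0.05 in edgeR, beside 12.1% of 18138 genes called. Fam19a1 over all nuclei was 400 ± 94 CPM in saline and 425 ± 112 CPM in EtOH.

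Proteins to which family members have been reported to bind were followed as well, among them the neurexins Nrxn2 and Nrxn3, the synaptic protein Lrrc4b and the receptors Gpr1, Fpr1, S1pr2 and Ccr2. The receptors had 491, 28, 578 and 5 UMIs and could not be tested in any cluster. Nrxn2 was called in no cluster by edgeR, DESeq2 or limma, with 1 of 25 tests at an unadjusted p under 0.05 and log2 differences between -0.19 and 0.37.

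Nrxn3, whose level was highest in Cluster 23 (migrating interneurons) at 43970 CPM, had a log2 difference below 0 in 23 of 25 clusters, with none called by edgeR, 3 by limma and 5 by DESeq2, and 11 at an unadjusted p under 0.05. In Cluster 1 it was 1030 ± 523 CPM in saline and 387 ± 140 CPM in EtOH (-1.47, adjusted p = 0.0803). Summed over PN it was called at -1.02 (SE 0.29, adjusted p = 0.0499), and this was lost when any embryo other than S2-4 was left out (adjusted p between 0.0605 and 0.116). Lrrc4b lay above 0 in 21 of 25 clusters, with none called by edgeR, DESeq2 or limma and 2 at an unadjusted p under 0.05.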

How the data were processed

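The authors aligned reads of a 10x 3′ kit to mm10 with Cell Ranger, filtered nuclei and genes, clustered nuclei in Seurat, and deposited raw UMI counts, a table per embryo and cluster. How doublets were treated is not given in the sources used here, and none were removed. The labels list a further saline embryo, S2-3, which was not used here. The members and gene lists were chosen with earlier results of these data known.

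From the deposited counts, UMIs were summed per embryo and cluster, per major cell type and over all nuclei, leaving out sums of fewer than 10 nuclei. EtOH and saline were compared with edgeR 4.0.16 (filterByExpr, TMM, quasi-likelihood test, R 4.3.3) over all genes that passed its filter on low counts, with Benjamini-Hochberg adjustment within a cluster. The fold thresholds were those of the study, at least 25% higher or 20% lower. DESeq2 1.42.0, limma 3.58.1 with dam as a random block, and other settings served as alternatives. Differences of effects used the same test with an interaction term. The edgeR, DESeq2 and limma fits were run on simulated counts for some clusters, PN and all nuclei, and the interaction for PN minus RGC. The simulated embryos had no effect of dam or batch, so this cannot show how the tests behave for embryos that share dams. Named genes were taken from the members, their reported binding partners, marker lists and the 5 genes most like each member, by Pearson's r over clusters of log2(CPM + 1), and some results are not reported here. Shares of nuclei were also computed after thinning nuclei to 2000 UMIs, leaving out 177 saline and 210 EtOH nuclei below that. Positions are from GENCODE on GRCm38, and upstream sequences from RefSeq on GRCm38.p6, where all 4 members matched.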

Additional observations from a re-analysis of the deposited data

Results flagged for a closer look

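In 40 groups of embryos looked at for the levels the report turns on, 5 had an embryo far from the rest of its group, where chance gives about 1 group in 20. For Fam19a1, EtOH embryo E2-3 had 25.3 CPM in Cluster 1 (the others 7.42 to 13.1 CPM), and saline embryo S2-1 had 624 CPM in Cluster 7 (the others 799 to 839 CPM). For Fam19a2, EtOH embryo E2-4 had 2363 CPM in Cluster 19 (the others 1531 to 1831 CPM). For Fam19a4, saline embryo S2-2 had 6.55 CPM in Cluster 15 (the others 0 to 0.872 CPM). For Fam19a5, EtOH embryo E1-1 had 407 CPM in Cluster 22 (the others 230 to 277 CPM).

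Of 33 tests of whether the EtOH effect on a member differed between cell types or clusters, 2 passed in edgeR. The effect on Fam19a1 in Cluster 3 minus that in Cluster 8 was -1.13 on the log2 scale, and the effect on Fam19a5 in Cluster 15 minus that in Cluster 5 was -0.71, both among the pairs of clusters chosen after the effects had been seen.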

How the results depend on the processing

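The number of member calls by cluster, each a pair of a member and a cluster, was 3 of 77 and depended on the setting. It was 8 with DESeq2, 9 of 100 without the filter on low counts, 5 of 84 with counts summed per dam, 6 with limma and dam as a random block, 5 of 67 with thinned nuclei, 14 of 75 in batch 1 alone and 0 in batch 2 alone, and it ran from 1 (without S1-1, S1-2, E2-2 or E2-4) to 8 (without S2-4) when an embryo was left out. By major cell type, 1 call became 2 with DESeq2, and 0 without the filter, with batch as a covariate, with counts summed per dam and in batch 2 alone, and ran from 0 to 3 (without S2-4) when an embryo was left out. For the list of reported binding partners, 1 call of 100 tests (1.0%, beside 0.792% of all genes) became 9 with DESeq2, 3 without the filter, 5 with counts summed per dam, 5 with limma, 2 with thinned nuclei, 13 in batch 1 alone and 0 in batch 2 alone, and ran from 0 to 10 (without S2-4). The cause was not tested. The share of all genes called is given for the main setting alone, so the counts under other settings are not read as results about members or partners. No called value changed sign under any alternative, and the count over all nuclei was 0 under each. Single embryos could not be paired, because embryo numbers count within a dam and pair no saline embryo with an EtOH embryo. The batches, which each hold a dam of either group, entered as a covariate instead, with 4 pairs of a member and a cluster called. With 2 dams per group, effects of dam and of EtOH cannot be told apart in full, and Cluster 25 had only 2 EtOH embryos. The cluster of the highest share of nuclei for Fam19a5 moved from 25 to 8 after thinning.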
